A study of Rattus norvegicus with 4 samples.

Results

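Fibroblast growth factors (FGFs) and their receptors were followed through 4 arrays of the rat skeletal myoblast line L6. The members were 6 ligands (Fgf1, Fgf2, Fgf7, Fgf9, Fgf10 and Fgf21) and 4 receptors (Fgfr1, Fgfr2, Fgfr3 and Fgfr4), chosen by name as every probe set whose single gene symbol was one of these. All 10 were found, with 9 probe sets for the ligands and 10 for the receptors, out of 14217 named genes. The cultures were L6-WT myoblasts, the wild type line, and L6-HGF myoblasts, which carry human hgf from a pBabepuro retroviral vector and were selected with puromycin, each grown as a monolayer and as a sheet. The line is labelled as of the Wistar strain. Sheets came from thermoreactive dishes, which release a confluent layer of cells in 1 piece when cooled to room temperature. The methods describe no line with an empty vector, so hHGF cannot be told apart from the vector and the selection.

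FGFs signal through receptor tyrosine kinases, and heparan sulphate on the cell surface stabilises the complex of ligand and receptor. The receptor passes the signal on through the docking protein FRS2 to the RAS and ERK cascade, which in turn induces its own inhibitors, among them the Sprouty proteins and the phosphatase DUSP6. In myoblasts, FGF signalling is known for keeping cells proliferating and holding back differentiation. FGF1 and FGF2 are also known as angiogenic factors, which is why their expression is of interest in a sheet meant for the infarcted heart.

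The values are log2 signals, with each probe set centred on its median over the 4 arrays, so that a positive value is higher than that median and a negative value lower. By this construction, the middle 2 arrays of a probe set lie equally far above and below 0. The signal level itself is lost. Whether a member is expressed at all, and whether one member is expressed more than another, therefore cannot be read from these values, and the label of a myoblast could not be checked against marker levels. With 1 array per condition, no difference between single arrays has a replicate check. As a yardstick, the log2 differences of 45 probe sets for bacterial control RNA had an SD of 0.12 between the monolayers, 0.22 between the sheets, 0.18 between the L6-WT formats and 0.16 between the L6-HGF formats, with none past 2-fold. They were not centred on 0 between formats, since their median was 0.23 higher in the L6-WT sheet and 0.17 higher in the L6-HGF sheet than in the monolayers. The single rat Hgf probe set, 0.38 (log2) higher in the L6-HGF monolayer and 0.50 higher in the L6-HGF sheet than in the L6-WT cultures, does not check the transgene, because whether it detects human hgf is not known.

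Fgf1 was the member with the widest range, and it stood apart in 1 culture, the L6-WT monolayer. FGF1 is a ligand of all 4 FGF receptors and leaves the cell without a classical secretion signal. Its centred log2 value was 0.72 in the L6-WT monolayer, -0.017 in the L6-HGF monolayer, -0.38 in the L6-WT sheet and 0.017 in the L6-HGF sheet. The L6-WT monolayer was thus the highest array and the L6-WT sheet the lowest, with both L6-HGF cultures nearly equal between them. Fgf1 was 2.13-fold lower in the L6-WT sheet than in the L6-WT monolayer (log2 difference -1.09), and 50 of 14217 genes had a lower value in that comparison. In L6-HGF cells the same comparison gave 0.035. Between the cell lines, Fgf1 was 1.66-fold lower in the L6-HGF than in the L6-WT monolayer (-0.73) and 1.31-fold higher in the L6-HGF than in the L6-WT sheet (0.39). The hHGF difference was thus 1.13 (log2) higher in sheets than in monolayers, a value that 48 genes exceeded. The member next in size was Fgfr4, at -0.46.

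The 3 probe sets of Fgf1 gave the same directions in 3 of the 4 comparisons. In the L6-WT monolayer they stood at 0.57, 0.58 and 0.995, and in the L6-WT sheet at -0.42, -0.29 and -0.42. All 3 were lower in the sheet of L6-WT cells, by 0.99, 0.87 and 1.41 on the log2 scale, so the mean passed 2-fold although 2 of the 3 did not. All 3 had opposite signs of the hHGF difference in the 2 formats. In L6-HGF cells 2 were higher and 1 was lower in the sheet, from -0.27 to 0.25. The -1.09 and the -0.73 both rest on the L6-WT monolayer array, whereas the comparisons that do not use this array, between the sheets and between the L6-HGF formats, gave 0.39 and 0.035.

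**Figure D1:**
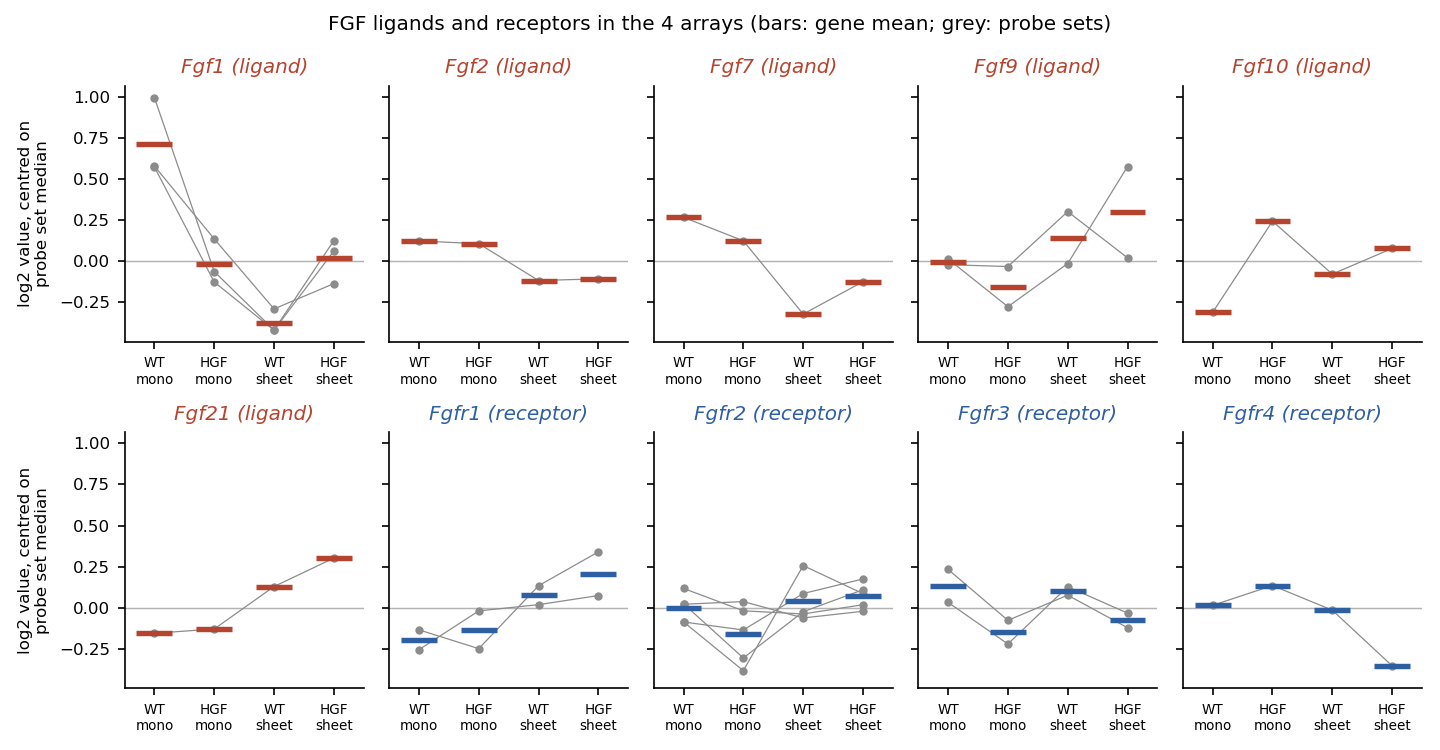
Centred log2 value (vertical axis) of each of the 10 genes in the 4 arrays (horizontal axis), with a coloured bar at the gene's mean over probe sets and grey points for single probe sets, joined by lines that mark 1 probe set and no order in time. Fgf1 stands at 0.72 in the L6-WT monolayer and at -0.38 in the L6-WT sheet, and Fgf7, next in range, spans 0.59.

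Fgf2, the FGF most widely used to keep myoblasts dividing in culture, moved with format and hardly with hHGF. Its value was 0.12 in the L6-WT monolayer, 0.11 in the L6-HGF monolayer, -0.12 in the L6-WT sheet and -0.11 in the L6-HGF sheet. Both monolayers were above both sheets. The sheet was lower by 0.24 on the log2 scale in L6-WT and by 0.21 in L6-HGF cells, while the hHGF difference was -0.017 in monolayers and 0.010 in sheets. These come from 1 probe set and are small: 40.2% of all genes differed at least as much between the L6-WT formats, and 47.2% between the L6-HGF formats.

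Fgf7 and Fgf10 encode paracrine ligands that mesenchymal cells make for the epithelial splice form of FGFR2. Fgf7 had 0.27 in the L6-WT monolayer, 0.12 in the L6-HGF monolayer, -0.32 in the L6-WT sheet and -0.12 in the L6-HGF sheet. Both sheets were again below both monolayers, and the sheet of L6-WT cells had a log2 difference of -0.59 from its monolayer, against -0.25 in L6-HGF cells. Fgf10 did not share this pattern. It had -0.31 in the L6-WT monolayer, 0.24 in the L6-HGF monolayer, -0.078 in the L6-WT sheet and 0.078 in the L6-HGF sheet, so that the L6-HGF culture was the higher in each format. Between the monolayers, Fgf10 was 1.47-fold higher in L6-HGF cells (0.55), a size that 3.0% of all genes reached, and 0.16 higher in sheets. Each of these genes has 1 probe set.

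Fgf9, a secreted ligand known from mesenchymal and nerve cells, had -0.0035 in the L6-WT monolayer, -0.15 in the L6-HGF monolayer, 0.14 in the L6-WT sheet and 0.30 in the L6-HGF sheet. The sheets were the higher arrays as a mean of 2 probe sets, but these did not agree. One was 0.85 higher in the L6-HGF sheet than in the L6-HGF monolayer and the other 0.053. Between the sheets they went opposite ways, with hHGF differences of 0.59 and -0.28, so the mean of 0.15 describes neither.

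Fgf21 encodes a hormone-like FGF that needs the co-receptor beta-klotho, and in muscle it is known as a gene of stress responses. It had -0.16 in the L6-WT monolayer, -0.13 in the L6-HGF monolayer, 0.13 in the L6-WT sheet and 0.30 in the L6-HGF sheet. Both sheets were above both monolayers, by 0.28 in L6-WT and 0.43 in L6-HGF cells. The bacterial controls had medians of 0.23 and 0.17 in the same direction, and their part in this difference was not tested.

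The receptors varied over a narrower range than Fgf1, and none differed by 2-fold or by 1.5-fold in any of the 4 comparisons. Fgfr1, a main FGF receptor of proliferating myoblasts, had -0.19 in the L6-WT monolayer, -0.13 in the L6-HGF monolayer, 0.077 in the L6-WT sheet and 0.21 in the L6-HGF sheet. Both sheets were higher than both monolayers, by 0.27 in L6-WT and 0.34 in L6-HGF cells, and its 2 probe sets were higher in the sheet in both cell lines. As for Fgf21, the bacterial controls lay on the same side. The 2 probe sets of Fgfr1 went opposite ways between the monolayers, with hHGF differences of 0.24 and -0.11.

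Fgfr4, a receptor associated with differentiating and regenerating muscle, was nearly level in 3 arrays and low in the fourth. Its single probe set had 0.015 in the L6-WT monolayer, 0.14 in the L6-HGF monolayer, -0.015 in the L6-WT sheet and -0.35 in the L6-HGF sheet. The L6-HGF sheet was 1.40-fold below the L6-HGF monolayer (-0.49) and 1.26-fold below the L6-WT sheet (-0.34), while the L6-WT formats differed by -0.029. A value of that size was not rare, since 15.7% and 18.4% of all genes reached it in those 2 comparisons.

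Fgfr3, known best as a brake on cartilage growth, had 0.13 in the L6-WT monolayer, -0.15 in the L6-HGF monolayer, 0.10 in the L6-WT sheet and -0.077 in the L6-HGF sheet. L6-HGF cells were below L6-WT cells in each format, by 0.28 on the log2 scale in monolayers and 0.18 in sheets, and both probe sets had this direction in both formats. Fgfr2, the receptor whose splice forms separate epithelial from mesenchymal FGF signalling, had the narrowest range of all 10 genes, with -0.0019, -0.16, 0.044 and 0.074 in the L6-WT monolayer, L6-HGF monolayer, L6-WT sheet and L6-HGF sheet. Its 5 probe sets spread wider than their mean, from -0.33 to 0.016 for the hHGF difference in monolayers and from -0.16 to 0.34 for the sheet difference in L6-WT cells.

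**Figure D2:**
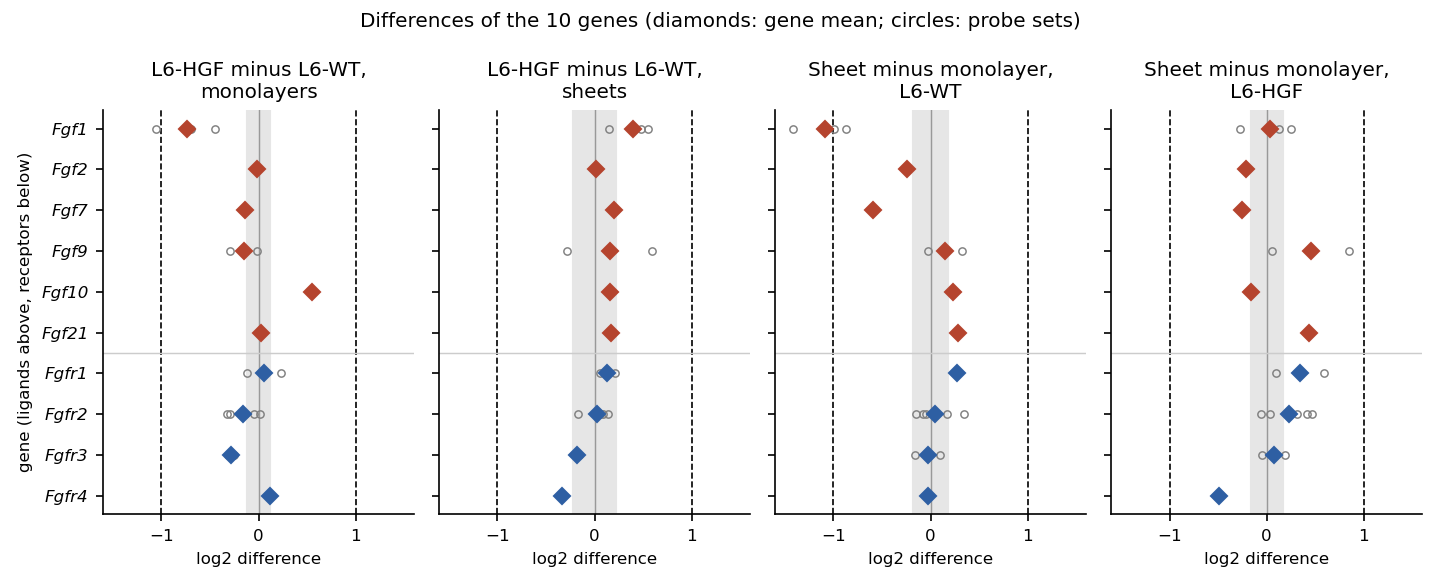
Log2 difference (horizontal axis) of each gene (vertical axis, ligands above receptors) in the 4 comparisons, with diamonds for the gene and circles for its probe sets, dashed lines at 2-fold, and a grey band of 1 SD of 45 bacterial control probe sets on either side of 0. The diamond of Fgf1 lies past -1 in the comparison of L6-WT formats, and the diamonds of the receptors lie between -0.49 and 0.34 throughout, with single receptor probe sets reaching 0.59 between the L6-HGF formats.

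Read as counts, few ligands and no receptor passed either threshold, and the share of all genes is given beside each count. For L6-HGF against L6-WT monolayers, 0 of 6 ligands and 0 of 4 receptors were called past 2-fold, against 0.535% of all genes. Past 1.5-fold lay 1 ligand, Fgf1, and no receptor, against 2.51%. For the sheets of the 2 cell lines, no ligand or receptor passed either threshold, against 1.44% of all genes past 2-fold and 5.78% past 1.5-fold. For sheet against monolayer in L6-WT cells, 1 ligand, Fgf1, passed 2-fold and 2, Fgf1 and Fgf7, passed 1.5-fold, with no receptor at either, against 1.21% and 7.13% of all genes. For sheet against monolayer in L6-HGF cells, no member passed 2-fold or 1.5-fold, against 3.75% and 11.3% of all genes. For the hHGF difference in sheets minus that in monolayers, Fgf1 was the 1 member past 2-fold and past 1.5-fold, against 1.9% and 7.26%. With 6 and 4 genes, a single gene moves these counts far, and nothing particular to the family can be read from them.

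The typical size of a difference was near that of all genes between the cell lines, and less so between formats. The median size over the ligands was 0.15 (log2) between the monolayers, 0.16 between the sheets, 0.26 between the L6-WT formats and 0.23 between the L6-HGF formats. Over the receptors it was 0.14, 0.155, 0.038 and 0.29 in the same order, and over all genes 0.13, 0.15, 0.19 and 0.20. Between the L6-WT formats the receptors were thus below, and between the L6-HGF formats above, the median size of all genes. In sheets, all 6 ligands had higher gene means with L6-HGF cells, from 0.010 for Fgf2 to 0.39 for Fgf1, with a median of 0.16 against -0.020 for all genes. Of all 14217 genes, 6573 were above 0 there, and the bacterial controls had a median of 0.053. The 2 probe sets of Fgf9 went opposite ways, at 0.59 and -0.28. Among the ligands, Fgf1 was the 1 beyond the control SD of 0.22, and of the receptors 2 were above and 2 below 0.

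**Figure D3:**
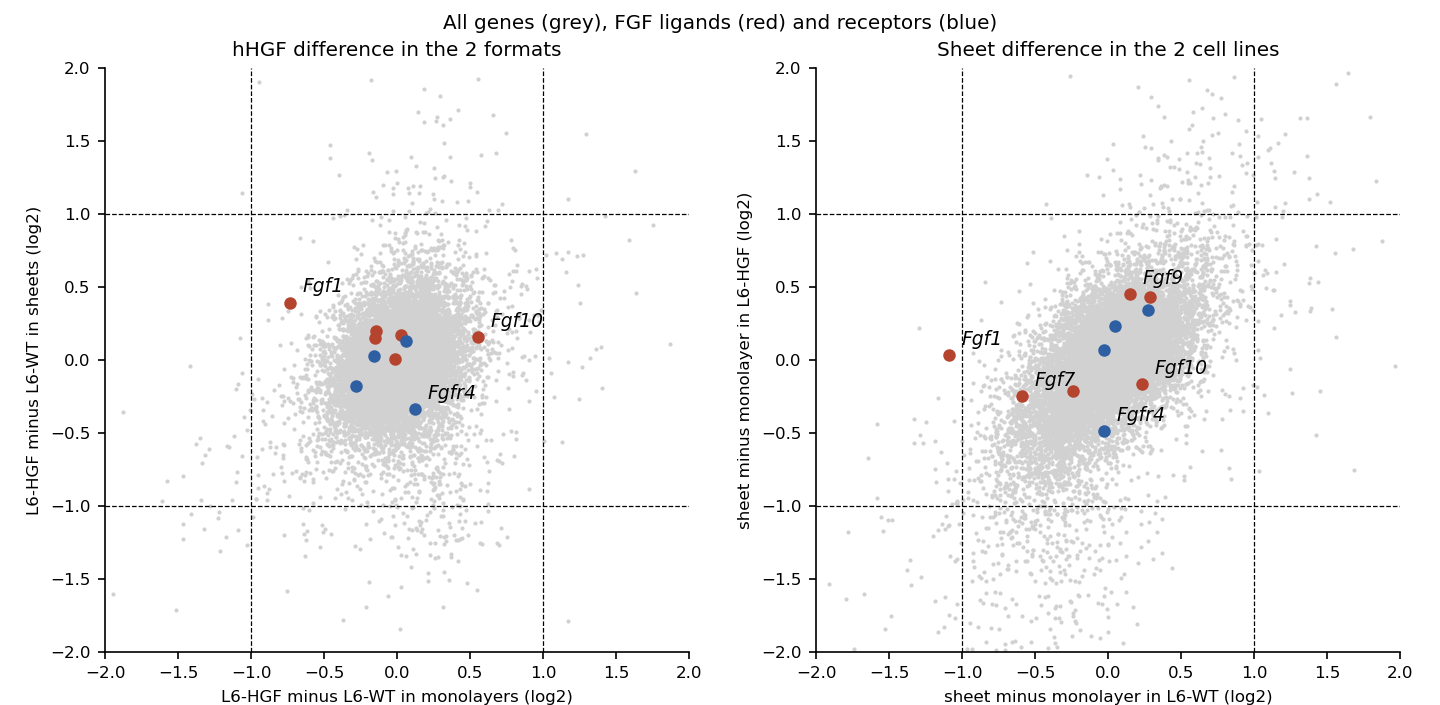
Log2 differences between L6-HGF and L6-WT in monolayers and in sheets (left) and between sheet and monolayer in L6-WT and in L6-HGF cells (right), with a grey point for each gene, red points for the 6 ligands, blue points for the 4 receptors and dashed lines at 2-fold. On the left 14 and on the right 64 genes lie outside the axes, and Fgf1 is the red point apart from the others, at -0.73 and 0.39 on the left and at -1.09 and 0.035 on the right.

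The 4 arrays together allow a test only of effects common to both formats or to both cell lines, by a limma model with 1 residual degree of freedom, whose residual also holds any true difference between formats. For the hHGF effect, 0 of 31042 probe sets (0%) passed an adjusted p of 0.05, and 2977 (9.59%) passed an unadjusted p of 0.05, with 0 of the 19 probe sets of FGFs and receptors among them. The adjusted p of these 19 from limma ran from 0.538, for Fgf10 (log2 difference 0.36 ± 0.14, SE), to 0.994. For the sheet effect, 0 probe sets (0%) passed the adjusted threshold and 6333 (20.4%) the unadjusted one. There, 5 of the 19 passed the unadjusted threshold, 1 each of Fgf1, Fgf7 and Fgf21 and 1 each of Fgfr1 and Fgfr2, with a smallest adjusted p from limma of 0.193, for 1 probe set of Fgfr2 (0.41 ± 0.11, SE). No FGF or receptor thus passed a test of a common effect, and with so few arrays this does not show that they did not differ. For Fgf1, whose differences were opposite in the 2 formats, the common hHGF effect of its 3 probe sets lay between -0.29 and -0.077, with standard errors from 0.18 to 0.41.

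The genes nearest to Fgf1 in pattern, by the Euclidean distance of the 4 centred values, were Golim4, a Golgi membrane protein (distance 0.22), Gzmb, the protease granzyme B (0.23), and Cap2, a regulator of actin filaments found in muscle (0.25). The length of the Fgf1 pattern itself was 0.79 on this scale, and 4 arrays are few points for a likeness. Their values in the L6-WT monolayer, 0.51, 0.46 and 0.69, were the highest of the 4 arrays for each. The genes were chosen for likeness to Fgf1 over these same 4 values, so this is no separate result.

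The L6-WT monolayer was also the highest array for Myh3, the embryonic myosin heavy chain of newly fused muscle fibres. Myh3 had 1.48 in the L6-WT monolayer, -0.40 in the L6-HGF monolayer, 0.18 in the L6-WT sheet and -0.18 in the L6-HGF sheet. Of 13 listed genes of myoblasts and early muscle, 11 were measured. Between the monolayers 4 were lower and 0 higher past 2-fold in L6-HGF cells (Myh3, Acta1, Tnnc2 and Mymk), against 0.535% of all genes. Between the sheets 2 were lower and 0 higher in L6-HGF cells (Acta1 and Mymk), against 1.44% of all genes. Des went the other way, 0.43 (log2) higher with L6-HGF in monolayers and 0.76 in sheets. At any size, 2 of the 11 were higher with L6-HGF in monolayers and 3 in sheets. By format, 1 gene of this list, Myh3, was lower past 2-fold in the L6-WT sheet and 0 in the L6-HGF sheet. The shares of all genes past 2-fold were 1.21% and 3.75%. The L6-WT monolayer was the highest array also for Mymk, a protein of myoblast fusion (1.02), and for Tnnc2, a fast muscle troponin (0.71), whereas Acta1, skeletal actin, was highest in the L6-WT sheet. Like Fgf1, Myh3 was lower past 2-fold in the L6-WT sheet than in its monolayer (-1.30) and differed by 0.22 between the L6-HGF formats. The order of the arrays below the highest was not that of Fgf1. For Myh3, Mymk and Tnnc2 the L6-WT sheet came next (0.18, 0.26 and 0.48), whereas for Fgf1 it was the lowest array (-0.38). In an RNA sample from a whole culture, fewer cells of one state and less RNA per cell cannot be told apart, and the part of these muscle genes in the Fgf1 difference was not tested. Over 9 fibroblast markers, 4 (Postn, Dpt, Fmod and Mfap5) were lower past 2-fold in L6-HGF cells in each format. The shares of all genes past 2-fold were 0.535% between the monolayers and 1.44% between the sheets. By format, 2, Postn and Dpt, were higher past 2-fold in the sheet of both cell lines, against 1.21% and 3.75%. Others went the other way, with 4 of the 9 below 0 in L6-WT and 6 in L6-HGF cells. Among them were Fmod (-0.65 and -0.85) and Col1a1 (-0.43 and -0.86). Markers of endothelial cells (5 of 6 measured) and macrophages (4 of 4) stayed within 2-fold in all 4 comparisons, from -0.21 to 0.17 and from -0.43 to 0.20, as did 4 adipocyte markers. Of 5 smooth muscle markers, 1, Smtn, was lower past 2-fold in the L6-HGF sheet than in its monolayer, against 3.75% of all genes past 2-fold. The other 4 were higher in that sheet, from 0.17 for Cnn1 to 0.62 for Tagln. The levels of these markers are not in the values.

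The other genes of the FGF family and pathway were taken from lists drawn up with earlier results of these data known. Counts over these lists are therefore descriptive. Of 12 other ligands measured out of 13 listed, none passed 2-fold in any comparison, and their medians lay between -0.019 and 0.10. Fgf18, a ligand active in bone and cartilage, had the widest difference of them between the monolayers, 0.45. The 4 FGF homologous factors, which stay in the cell and bind sodium channels, also stayed within 2-fold, and 3 of them had negative hHGF differences between the monolayers, with Fgf11 at -0.55.

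Of 11 co-receptors and binding proteins measured out of 14 listed, Flrt3 was the 1 past 2-fold. FLRT3 is a membrane protein that binds FGF receptors and promotes their signalling. Its values were -0.46 and -0.83 in the L6-WT and L6-HGF monolayers and 0.67 and 0.46 in the L6-WT and L6-HGF sheets, both sheets above both monolayers. Flrt3 was 2.19-fold higher in the sheet of L6-WT cells and 2.45-fold higher in that of L6-HGF cells, from 1 probe set. Past 2-fold in these comparisons were 1.21% and 3.75% of all genes. The ligand carrier proteins Fgfbp1 and Fgfbp3 had sheet differences of 0.037 and 0.11 in L6-WT and 0.093 and 0.58 in L6-HGF cells, and Fgfrl1, a receptor that lacks the kinase domain, had 0.15 and 0.24. Of 21 heparan sulphate proteoglycans and enzymes measured out of 23 listed, none passed 2-fold in any comparison, with medians from -0.027 to 0.042.

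Downstream of the receptors, 0 of 19 adaptors and docking proteins measured out of 25 listed passed 2-fold in the 4 comparisons. In the L6-WT sheet 16 of them were below the L6-WT monolayer, with a median of -0.24 against 0.028 for all genes. Between the L6-HGF formats 13 of the 19 were below 0, with a median of -0.050 against 0.0265. Among all 14217 genes, 6488 were below 0 between the L6-WT formats and 6531 between the L6-HGF formats. Frs2, the docking protein bound by FGF receptors, was lower in the sheet by 0.69 on the log2 scale in L6-WT and by 0.47 in L6-HGF cells.

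Most of the pathway genes past 2-fold were feedback inhibitors and ERK target genes, chiefly in comparisons with the L6-HGF sheet. These genes answer to many receptors besides those for FGF, including MET, the receptor for HGF. Of 20 measured out of 23 listed, 1 was lower past 2-fold and 0 higher in the L6-HGF than in the L6-WT monolayer. This was Spry1, a Sprouty inhibitor of FGF and other receptor signalling, at 2.77-fold lower, and 0.535% of all genes passed 2-fold there. Between the sheets 6 were lower past 2-fold in L6-HGF and 0 higher, with a median of -0.29 against -0.020 for all genes. At 1.5-fold, 9 were lower and 2 higher (Dusp5 and Myc, 0.88 each), against 5.78% of all genes. At any size, 6 of the 20 were above 0. Of all 14217 genes, 135 were lower and 70 higher past 2-fold in that comparison (1.44%). The 6 lower past 2-fold were Dusp6, which inactivates ERK (2.10-fold), the ETS factor Etv1 (2.28-fold), and the immediate early genes Egr1 (4.999-fold), Junb (2.45-fold), Ier2 (2.02-fold) and Fos (4.94-fold). For Fos, Junb and Ier2 the L6-WT sheet was the high array (2.41, 1.37 and 0.88), with the L6-HGF sheet at 0.10, 0.079 and -0.14. For Egr1, Dusp6 and Etv1 the L6-HGF sheet was the low array (-2.58, -1.20 and -0.85).

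By format, 3 of these 20 genes were lower past 2-fold in the L6-HGF sheet than in the L6-HGF monolayer, Egr1, Dusp6 and Phlda1, an ERK-induced regulator of cell survival, against 366 lower and 167 higher of all genes (3.75%). The values of Dusp6 were 0.17 in the L6-WT monolayer, 0.24 in the L6-HGF monolayer, -0.13 in the L6-WT sheet and -1.20 in the L6-HGF sheet, and its 3 probe sets all had the L6-HGF sheet lowest. In the L6-WT sheet 2 were higher past 2-fold than in the monolayer, Junb and Fos, against 1.21% of all genes. The 2 probe sets of Fos disagreed, with sheet differences of 4.87 and 0.056 in L6-WT cells and hHGF differences of -4.78 and 0.18 between the sheets. Quantile normalization of the centred values brought Dusp6 (-0.71) and Etv1 (-0.98) within 2-fold between the sheets, and Phlda1 (-0.90) between the L6-HGF formats. It reduced Fos between the sheets from -2.30 to -1.42, and it brought Ier2 past 2-fold between the L6-WT formats, from 0.93 to 1.08, so that 3 genes were higher there.

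**Figure D4:**
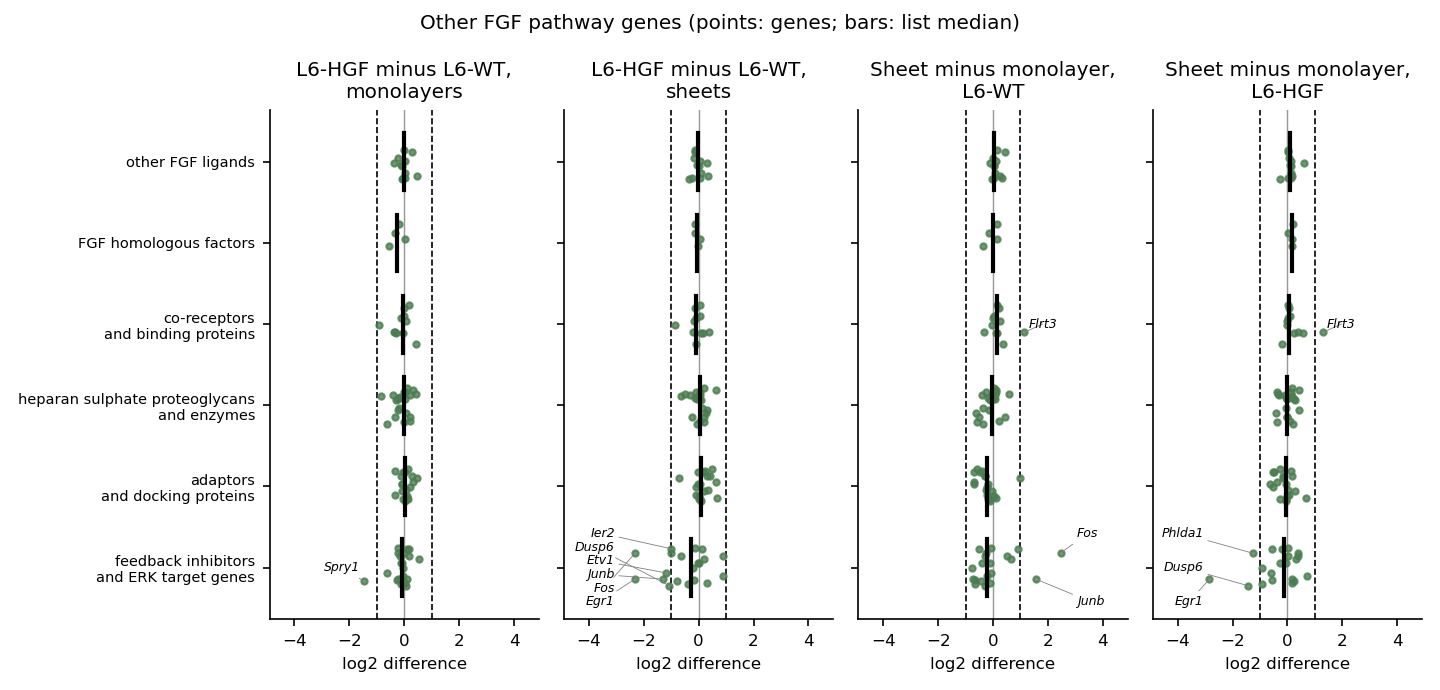
Log2 differences (horizontal axis) in the 4 comparisons for other genes of the FGF family and pathway, grouped by list (vertical axis), with a point per gene spread vertically for legibility, a black bar at each list's median, dashed lines at 2-fold, and names for genes past them. The points past 2-fold belong to Flrt3 and to the feedback inhibitors and ERK target genes, 6 of which lie below -1 between the sheets.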

How the data were processed

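RNA from 4 cultures was hybridized to Affymetrix rat genome arrays, 1 per condition. The authors processed the arrays with RMA, its version not given in the sources used here. By inspection, the log2 values they deposited were centred, probe set by probe set, on the median of the 4 arrays. They therefore hold no signal level, and dim probe sets could not be filtered. Here 57 control probe sets were left out and 31042 compared, of which 20826 had 1 gene symbol, 436 several and 9780 were not listed. A gene is the mean of its probe sets with 1 symbol. Differences between single arrays were called past 2-fold, with no test. Common effects were tested with limma 3.58.1 (R 4.3.3), with terms for cells and format and Benjamini-Hochberg adjustment over all probe sets. The fit was tested on simulated data, where it recovered the fold changes but called none of the changed probe sets at the adjusted threshold, so 0 calls are weak evidence. Alternatives were quantile normalization, array centring, other probe set summaries, a 1.5-fold threshold, gene-level fits and models with 1 term. Genes named are the members, pathway list genes past 2-fold, up to 4 others that bind members directly, and the 3 genes nearest in pattern to a member with a range over 1, with other names given for marker counts or chosen after their values were seen. Members and lists were chosen with earlier results of these data known. No build was stated, so no coordinates are given.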

Additional observations from a re-analysis of the deposited data

Results flagged for a closer look

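Of the 10 members, 6 had hHGF differences of opposite sign in the 2 formats. For the sheet difference in the 2 cell lines, 3 had opposite signs. The share of all genes with opposite signs was not counted, so these numbers do not set the members apart. The members given here had both sizes above the SD of the bacterial control probe sets between the same arrays. For Fgf1, the hHGF difference had opposite signs in the 2 formats, at -0.73 (log2) in monolayers and 0.39 in sheets, with the same signs in all 3 probe sets. The sheet difference had opposite signs in the 2 cell lines for Fgf10, at 0.23 in L6-WT and -0.17 in L6-HGF cells, from 1 probe set. The control SDs were 0.18 and 0.16, but the controls had a median of 0.23 between the L6-WT formats, the same value as Fgf10, so its difference there did not stand out from them. These controls cover technical spread only. With 1 array per condition, neither difference between formats or cell lines was tested.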

How the results depend on the processing

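Each condition had 1 array, which limits the precision of every value, and signal over background is unknown because the values hold no level. No paired analysis was possible because each group has a single array and the labels give no replicate numbers. Leaving out an array removes the residual degree of freedom and was not run, and no filter on dim probe sets could be made. Past 2-fold between the monolayers lay 0 ligands, but 1 with the probe set of widest range in place of the mean (Fgf1, -1.06) and 1 at a 1.5-fold threshold. Between the L6-WT formats 2 ligands passed 1.5-fold against 1 at 2-fold. The other counts of ligands and receptors were the same under each alternative, as was the 1 member (Fgf1) past 2-fold for the hHGF difference in sheets minus that in monolayers. The members with opposite signs and both sizes above the control SD were 2 (Fgf1 and Fgf10), but 3 under quantile normalization and array centring, where Fgfr4 joined them, and 3 with the probe set of widest range, where Fgf9 did. In limma, the sheet effect had 0 probe sets at an adjusted p of 0.05, but 53 after quantile normalization of the centred values and 4 after each array was shifted to a median of 0, and 2 genes when genes replaced probe sets. None of these was a probe set or gene of an FGF or receptor. For the hHGF effect all of these settings gave 0. The cause was not tested. Of 50 member values, 50 kept their sign under quantile normalization (largest change 0.066) and 50 after array centring, against 46 with the probe set of widest range and 48 without probe sets ending in _x_at, _s_at or _a_at. The values that changed sign were those of Fgf9, Fgfr1, Fgfr2 and Fgfr3, all within 0.15 of 0 as means.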

Other observations

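Some pathway genes within 2-fold in the 4 comparisons had differences larger than those of most FGF members, and were chosen after their values were seen. Sulf2, which trims sulphate from heparan sulphate outside the cell, was lower in L6-HGF than in L6-WT cells by 0.91 on the log2 scale in monolayers and by 0.86 in sheets, and differed little between formats (-0.051 in L6-WT and -0.0010 in L6-HGF cells). Ext1, which builds the heparan sulphate chain, was lower by 0.84 and 0.64, with both of its probe sets in the same direction in each format. Sdc1, a heparan sulphate proteoglycan of the membrane, went opposite ways, with 0.41 between the monolayers and -0.51 between the sheets, and both of its probe sets had these signs. Fgf17, an FGF of the developing brain, had -0.38 between the monolayers, 0.32 between the sheets and 0.61 between the L6-HGF formats. Grb14, an adaptor that dampens receptor tyrosine kinases, had 0.45 between the monolayers and -0.71 between the sheets, so that the hHGF difference in sheets minus that in monolayers was -1.16, past 2-fold. Its largest single difference was 0.99, between the L6-WT formats. Each of these has 1 array per condition and no test.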
